A study of Mus musculus with 40 samples.

Results

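The 6 genes *Mylk4*, *Plekhh1*, *Fibin*, *Lgi1*, *D630003M21Rik* and *A1cf* were among those with the largest falls in mouse hearts in which cardiomyocytes express interleukin 11 (*Il11*). They were picked for their fall against control at 6 weeks after tamoxifen or in hearts that received no tamoxifen, and all 6 are listed among the 17646 genes of the male table and the 17223 genes of the female table. PolyA RNA was sequenced from heart tissue of both sexes, with 1 library per mouse. CM-Il11-Tg mice carry 1 copy of the α-MHC-MerCreMer transgene, which drives a tamoxifen-dependent Cre in cardiomyocytes, and 1 copy of *Rosa26-Il11*, an *Il11* transgene that Cre switches on. They were studied 1, 3 and 6 weeks after tamoxifen, and as uninduced mice without it. Control mice, which the labels call WT, are described in the study's methods as littermates of the same age with α-MHC-MerCreMer and without *Rosa26-Il11*. They received tamoxifen and are labelled as baseline, so every week was set against the same controls, and time since tamoxifen and the presence of *Rosa26-Il11* cannot be told apart in those comparisons. All groups therefore carry the Cre transgene, and the study's methods give the parents as *Rosa26-Il11* females of C57BL/6N and Cre males of C57BL6/J background. Uninduced mice differ from controls both in carrying *Rosa26-Il11* and in having had no tamoxifen, and these cannot be told apart. The labels call the tissue heart and the study calls it left ventricle of adult mice, and in RNA of whole tissue fewer cells of a type and less RNA per cell cannot be told apart. The male control and male 6-week groups had 3 libraries each and every other group had 4, because 2 male libraries have labels that contradict each other and were set aside.

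The genes have different known roles. *Mylk4* encodes a myosin light chain kinase of striated muscle, a family of enzymes that phosphorylate the regulatory light chain of myosin and so tune contraction. *Plekhh1* encodes a protein with pleckstrin homology, MyTH4 and FERM domains, which link membranes to the cytoskeleton. *Fibin* encodes a secreted protein first described as a fin bud initiation factor. *Lgi1* encodes a secreted leucine-rich repeat protein that binds ADAM22 and ADAM23 and acts on Kv1 potassium channels and synapses in the brain. *A1cf* encodes an RNA-binding partner of the cytidine deaminase APOBEC1, which edits the *Apob* transcript in intestine and liver. *D630003M21Rik* is a protein-coding gene known by its RIKEN clone name.

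The genes lie on 4 chromosomes of GRCm39. *Fibin* (ENSMUSG00000074971, 110191262 to 110193528, minus strand) and *D630003M21Rik* (ENSMUSG00000037813, 158024453 to 158071367, minus strand) are on chromosome 2. *Plekhh1* (ENSMUSG00000060716) is on chromosome 12 from 79075561 to 79128431, plus strand, and *Mylk4* (ENSMUSG00000044951) is on chromosome 13 from 32884810 to 32968052, minus strand. *A1cf* (ENSMUSG00000052595, 31846164 to 31926395) and *Lgi1* (ENSMUSG00000067242, 38252960 to 38300662) are both on the plus strand of chromosome 19. Transcripts of *Lgi1* and of *Gm3888*, a processed pseudogene on chromosome 15, share 1240 bases at 99.919% identity. Reads may therefore have been split between these genes, and *Lgi1* values are uncertain to that extent. *Plekhh1* shares 994 bases with transcripts of *Pigh* on the opposite strand. The libraries were directional, but the strand setting of the counting is not given in the sources used here, so reads in that overlap cannot be assigned with certainty.

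The promoters of the 6 genes were searched for 8 motifs on both strands, from 250 bases before to 50 after each start, in sequences from RefSeq on GRCm38.p6. Each gene had 1 promoter window in this table of 32851. The upstream stretches of *Mylk4*, *Lgi1* and *Fibin* are printed because each holds a motif that the other 5 genes lack. Capitals mark a match to MEF2, the site of a muscle transcription factor family, in *Mylk4*, to the STAT motif TTCNNNGAA in *Lgi1*, and to MCAT (CATTCC), the site of TEAD factors, in *Fibin*.
Mylk4 promoter, chr13:32783965-32784214 (minus strand): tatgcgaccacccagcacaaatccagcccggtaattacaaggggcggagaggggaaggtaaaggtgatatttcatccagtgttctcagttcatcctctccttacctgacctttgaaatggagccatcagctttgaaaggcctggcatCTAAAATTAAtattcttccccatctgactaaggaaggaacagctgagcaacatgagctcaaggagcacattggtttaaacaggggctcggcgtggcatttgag
Lgi1 promoter, chr19:38264437-38264686 (plus strand): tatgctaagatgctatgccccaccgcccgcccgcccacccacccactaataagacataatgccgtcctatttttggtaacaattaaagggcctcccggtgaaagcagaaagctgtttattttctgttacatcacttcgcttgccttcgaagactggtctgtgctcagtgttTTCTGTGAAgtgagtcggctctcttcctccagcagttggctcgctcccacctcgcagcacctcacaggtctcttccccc
Fibin promoter, chr2:110362994-110363243 (minus strand): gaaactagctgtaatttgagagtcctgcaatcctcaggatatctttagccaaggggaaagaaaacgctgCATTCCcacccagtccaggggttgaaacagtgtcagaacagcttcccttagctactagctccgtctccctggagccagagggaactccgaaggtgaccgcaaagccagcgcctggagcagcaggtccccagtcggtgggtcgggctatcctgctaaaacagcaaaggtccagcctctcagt
The matches start 103 bases (*Mylk4*), 79 bases (*Lgi1*) and 181 bases (*Fibin*) upstream of the start. Among all promoters of the table, 3.19% held the MEF2 motif, 8.3% the STAT motif and 14.7% MCAT. Interleukin 11 is known to signal through STAT3, and 1 of the 6 promoters held the STAT motif. The E-box CANNTG was found in *Mylk4*, *Plekhh1* and *Lgi1* and in 72.3% of all promoters. The clock E-box CACGTG, a special case of CANNTG, was in none of the 6 and in 7.15% of all promoters. The TATA box TATAAA (13.6%), the GATA motif AGATAA (11.2%) and the SRF CArG box (1.63%) were also in none of the 6. These are matches of letters, and no binding was measured.

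Levels are given in the authors' CPM, which are read counts divided by a factor per library. Columns sum to 817395 to 1196278, so the factor is not the library total alone. Reads on listed genes ran from 16663513 to 65333832 in male libraries and from 19147947 to 30929192 in female libraries, and because each sex has a table scaled on its own, levels were set against each other only inside a sex. *Il11* was at most 0.147 CPM in male and 0.166 CPM in female controls. It was 16.5 to 23.3 CPM in male and 15.5 to 49.1 CPM in female uninduced hearts, and 328 to 819 CPM in the induced hearts of both sexes. Cardiomyocyte markers (10 of 10 listed) summed to 69928 to 80106 CPM in male controls and 46335 to 57117 CPM at 6 weeks, and to 53195 to 70866 CPM and 44267 to 52910 CPM in females. At 6 weeks, 2 of these 10 markers were called lower in males and 5 in females, with median log2 fold changes of -0.36 and -0.46. Of all genes at 6 weeks, 10.9% were called lower in males and 21% in females, and 16.2% and 21.7% higher. Fibroblast markers (5 of 5 listed, 4 called higher in each sex) summed to 561 to 851 CPM in male controls and 4060 to 5720 CPM at 6 weeks, and to 644 to 871 CPM and 5621 to 9646 CPM in females. Macrophage markers (5 of 5 listed, all called higher in each sex) summed to 134 to 218 CPM and 545 to 738 CPM in males, and to 108 to 161 CPM and 643 to 753 CPM in females. Endothelial markers (5 of 5 listed, 3 called lower in males and 4 in females) summed to 893 to 1006 CPM in male controls and 561 to 696 CPM at 6 weeks, and to 801 to 913 CPM and 507 to 708 CPM in females. Hepatocyte markers (4 of 4 listed, 1 called higher in each sex) summed to 2.17 to 3.64 CPM in male controls. At 6 weeks they summed to 7.24 to 52.3 CPM (median 8.52). In females they summed to 4.85 to 6.76 CPM in controls and 6.39 to 87.5 CPM (median 15.3) at 6 weeks. Smooth muscle and pericyte markers (4 of 4 listed, 1 called lower in each sex) summed to 819 to 1000 CPM in male controls. At 6 weeks they summed to 458 to 519 CPM. In females they summed to 782 to 965 CPM in controls and 547 to 719 CPM at 6 weeks. Of the 3 skeletal muscle markers listed, 1 was called lower at 6 weeks in each sex. T cell markers had 1 of 2 called higher in males and 2 of 4 in females, and *Mbp* was called higher in each sex. The part of these shifts in the levels of the 6 genes was not tested. Adipocyte markers and the neuronal markers *Snap25* and *Syt1* were not among the listed genes. In 2 female libraries the atrial gene *Myl7* reached 52.3 CPM (1 week, replicate 2) and 346 CPM (6 weeks, replicate 2), against at most 0.53 CPM in the other female libraries.

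*Mylk4* was the most abundant of the 6 genes per kilobase of exon. Its mean level in controls was 24.3 CPM per kilobase in males and 27.0 in females. *Fibin* followed at 3.23 and 3.82 CPM per kilobase and *D630003M21Rik* at 1.57 and 2.31 CPM per kilobase. *Plekhh1* (0.539 and 0.321), *Lgi1* (0.387 and 0.238) and *A1cf* (0.38 and 0.558) lay below 1 CPM per kilobase in both sexes. The group means of these last genes at 6 weeks rested on few reads, from 17 summed over the 4 female libraries for *A1cf* to 75 over the 3 male libraries for *Lgi1*.

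In male hearts, *Mylk4* was at 156, 220 and 198 CPM in controls, at 82.2, 109, 83.6 and 126 CPM in uninduced hearts and at 6.19, 10.1 and 15.6 CPM at 6 weeks. In between, it was at 26.6, 23.2, 25.5 and 13.3 CPM at 1 week and at 17.8, 14.5, 26.4 and 29.4 CPM at 3 weeks. Every uninduced male heart lay below every control and above every induced heart, while the 3 induced groups overlapped. In female hearts, *Mylk4* was at 245, 253, 178 and 177 CPM in controls and at 8.36, 15.5, 8.25 and 13.9 CPM at 6 weeks. It was at 35.0, 18.5, 35.1 and 23.9 CPM at 1 week and at 24.1, 20.9, 22.5 and 36.9 CPM at 3 weeks. The female 6-week libraries all lay below those of 1 and 3 weeks, which overlapped each other. Of all genes, 2.39% lay below 1 week and 3.9% below 3 weeks in this way, and of the 6 genes 1 (*Mylk4*) and 2 (with *D630003M21Rik*). The female uninduced hearts split, with 112, 105.8 and 166 CPM in replicates 1, 2 and 4 and 12 CPM in replicate 3. The mean at 6 weeks was 5.55% of the control mean in males and 5.39% in females, an 18.0-fold and an 18.5-fold lower level.

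**Figure D1:**
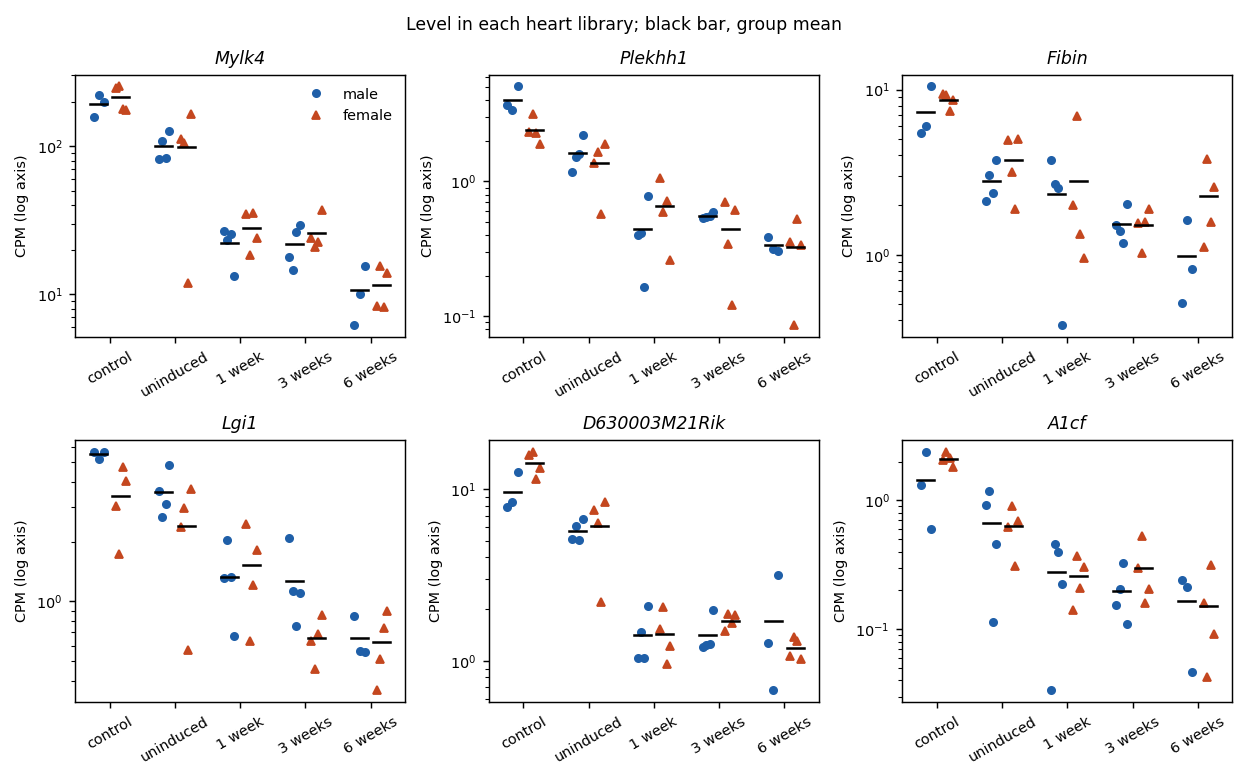
CPM of each gene in each library on a log axis, by group, with circles for male and triangles for female hearts and a black bar at the mean of each group. Every library at 6 weeks lies below every control library of its sex for each gene, as for 17.3% of all genes in males and 17.9% in females. For Mylk4, 1 female uninduced library sits at 12 CPM, among the induced hearts.

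On the log2(CPM + 0.5) scale, the change of *Mylk4* against control in males was -0.94 (standard error 0.28) in uninduced hearts, and -3.12 (0.28), -3.13 (0.28) and -4.19 (0.30) after 1, 3 and 6 weeks. The female values were -1.58, -2.93, -3.02 and -4.19 (0.51 each). These values chose the gene, or share its control libraries, and are given as a description with no test. In the order of falls at 6 weeks *Mylk4* came first in both sexes, among 1738 male and 2735 female genes that were called lower and whose libraries all lay below those of control. In males *Plekhh1*, *Fibin*, *Lgi1* and *D630003M21Rik* were at ranks 2, 3, 4 and 5, and *A1cf* was at rank 66. In females *D630003M21Rik* was at rank 5, *A1cf* at 47, *Plekhh1* at 71, *Fibin* at 72 and *Lgi1* at 91. The first gene outside the 6 in that order was *Inmt*, sixth in males at -2.22, and *Lgals4*, second in females at -3.45.

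*D630003M21Rik* showed its low level already at 1 week. It was at 7.87, 8.44 and 12.6 CPM in male controls and at 1.04, 1.48, 1.03 and 2.1 CPM at 1 week, and at 15.7, 16.5, 11.5 and 13.2 CPM in female controls and 1.53, 2.05, 0.962 and 1.21 CPM at 1 week. At 6 weeks it was at 1.26, 0.671 and 3.15 CPM in males and at 1.07, 1.37, 1.30 and 1.02 CPM in females. The male induced groups overlapped one another, and the highest of the male 6-week libraries was above every male library of 1 and 3 weeks. The log2 change against control in males was -2.41 (standard error 0.29), -2.39 (0.29) and -2.34 (0.31) for 1, 3 and 6 weeks, and it was -2.94, -2.72 and -3.11 (0.26 each) in females. In uninduced hearts the gene was at 5.05 to 6.66 CPM in males and at 7.57, 6.32, 2.20 and 8.38 CPM in females, between the control and the induced hearts in each library. Of all genes, 6.74% in males and 3.11% in females had every uninduced library below control. The weeks lay wholly below uninduced hearts for 10.4%, 10.7% and 13% of all genes in males and 5.8%, 7.16% and 5.88% in females.

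*Plekhh1* was at 3.67, 3.41 and 5.06 CPM in male controls, 1.18, 1.51, 1.61 and 2.20 CPM in uninduced hearts and 0.388, 0.318 and 0.303 CPM at 6 weeks. It was at 0.166 to 0.786 CPM at 1 week and at 0.540 to 0.589 CPM at 3 weeks, and it was the only one of the 6 genes whose male 6-week libraries all lay below those of 3 weeks, as did 2.04% of all genes. None of the 6 did so against 1 week in males (4.55%). In females it was at 1.88 to 3.15 CPM in controls, 0.573 to 1.90 CPM in uninduced hearts, 0.260 to 1.07 CPM at 1 week, 0.121 to 0.707 CPM at 3 weeks and 0.0859 to 0.527 CPM at 6 weeks. Its log2 change at 6 weeks was -2.43 (standard error 0.22) in males and -1.83 (0.27) in females. In the male uninduced hearts the change was -1.10 (0.20). Over the whole table only 6 genes were called lower there with no overlap with control, and in that order it came second after *Angptl7* at -1.19, which was not chosen. *Fibin*, at -1.22 (0.39), was not in that order.

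*Fibin* was at 5.47, 6.02 and 10.5 CPM in male controls, 2.1 to 3.72 CPM in uninduced hearts and 0.510, 1.62 and 0.816 CPM at 6 weeks. At 1 week it was at 3.75, 2.67, 2.53 and 0.375 CPM, which overlapped the uninduced hearts. In females it was at 9.39, 9.24, 7.40 and 8.65 CPM in controls, 1.90 to 5.06 CPM in uninduced hearts, 1.03 to 1.88 CPM at 3 weeks and 1.11, 3.78, 1.58 and 2.56 CPM at 6 weeks. Female hearts at 1 week were at 1.99, 6.92, 1.34 and 0.954 CPM. The highest libraries at 1 week and at 6 weeks (6.92 and 3.78 CPM) are the 2 that also held *Myl7*. The part of atrial tissue in these values was not tested. The log2 change at 6 weeks was -2.41 (standard error 0.42) in males and -1.83 (0.38) in females.

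*Lgi1* was at 5.66, 5.23 and 5.62 CPM in male controls, 3.58, 2.67, 3.10 and 4.86 CPM in uninduced hearts, and 0.850, 0.565 and 0.560 CPM at 6 weeks. In females it was at 3.01, 1.74, 4.75 and 4.05 CPM in controls, 2.45, 0.632, 1.21 and 1.82 CPM at 1 week and 0.357, 0.516, 0.738 and 0.894 CPM at 6 weeks. The female controls were widely spread and overlapped the hearts at 1 week and the uninduced hearts. The log2 change was -1.76 (standard error 0.25) at 1 week and -2.38 (0.27) at 6 weeks in males, and -0.96 (0.35) and -1.74 (0.35) in females. With the reads of *Gm3888* added, the mean at 6 weeks was 11.8% of the control mean in males and 19.4% in females, against 12% and 18.5% for *Lgi1* alone.

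*A1cf* was the lowest of the 6 genes in CPM. It was at 1.31, 2.39 and 0.602 CPM in male controls and at 2.07, 2.37, 2.15 and 1.83 CPM in female controls. At 6 weeks it was at 0.243, 0.212 and 0.0466 CPM in males and at 0.159, 0.0430, 0.316 and 0.0925 CPM in females, and these libraries held 1 to 10 reads each. Male uninduced hearts, at 0.922, 1.19, 0.115 and 0.456 CPM, overlapped the controls. Female uninduced hearts, at 0.619, 0.911, 0.309 and 0.688 CPM, all lay below the female controls, as did 3.11% of all genes. In the female uninduced hearts the log2 change was -1.23 (standard error 0.18), at rank 4 among the 64 genes called lower there with no overlap with control, which *Nmb*, a gene that was not chosen, led at -1.46. *Mylk4*, at -1.58, was not among those 64. The mean at 6 weeks was 7.25% of the control mean in females, while the log2 change was -2.01 (0.18), because adding 0.5 CPM to so low a level shrinks it. Log2 changes of genes near 0.5 CPM are therefore not comparable with those of *Mylk4*.

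At 6 weeks all 6 genes had every library below every control library of the same sex. Of all genes tested, 17.3% in males and 17.9% in females did so. At 1 week this held for 6 of 6 genes in males (18.9% of all genes) and 5 of 6 in females (16.2%), and at 3 weeks for 6 of 6 in both sexes (14.7% and 18.6%). In uninduced hearts it held for 5 of 6 in males (6.74% of all genes), all but *A1cf*, and for 4 of 6 in females (3.11%), all but *Plekhh1* and *Lgi1*. Nothing is read from these shares, since the genes were chosen on the 6-week and uninduced contrasts and the weeks share the control libraries.

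**Figure D2:**
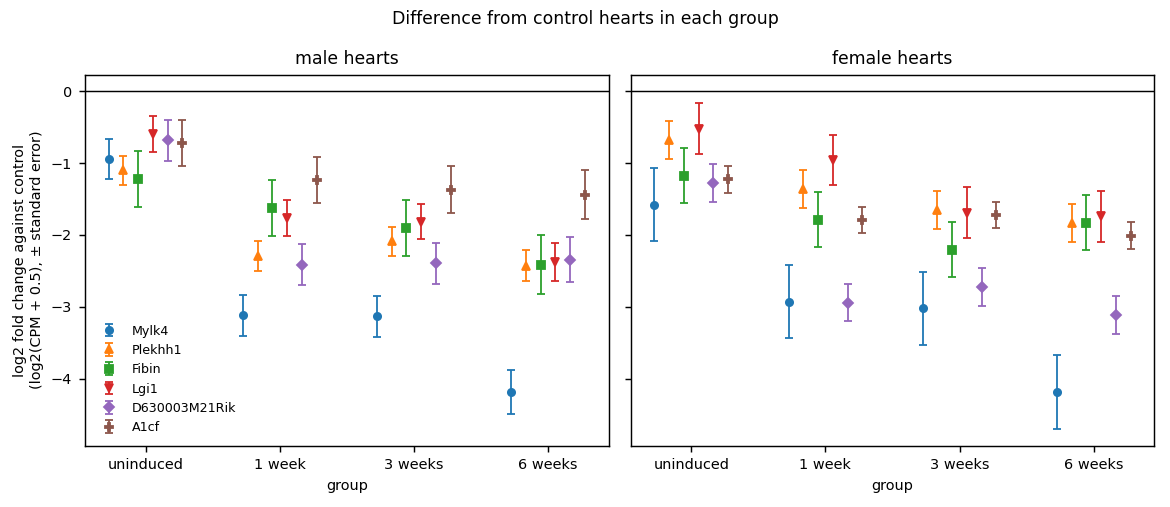
Log2 fold change against control of each gene in each group, on log2(CPM + 0.5), with bars of 1 standard error. Mylk4 is lowest at each week in males and reaches -4.19 at 6 weeks in both sexes, and the uninduced hearts lie between 0 and the induced hearts for every gene. Adding 0.5 CPM shrinks the changes of genes at low levels. At 1 week in males the mean of Plekhh1 was 10.9% of control and that of Mylk4 11.6%.

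Uninduced mice differ from controls in both *Rosa26-Il11* and tamoxifen. The uninduced hearts stood between control and induced hearts in the group means of all 6 genes in both sexes. As a share of the control mean they ran from 38.3% (*Fibin*) to 64.6% (*Lgi1*) in males and from 30% (*A1cf*) to 70.8% (*Lgi1*) in females. Female uninduced replicate 3 had the highest *Il11* of its group, 49.1 CPM against 15.5 to 21.4 CPM, and the lowest level of each of the 6 genes. Without it, the female uninduced mean was 60.0% of control for *Mylk4*, 52.2% for *D630003M21Rik*, 50.7% for *Fibin*, 68.1% for *Plekhh1*, 88.7% for *Lgi1* and 35.1% for *A1cf*. The log2 change of *Mylk4* was then -0.74 (standard error 0.26), and that of *Lgi1* was -0.10 (0.29). The same 4 genes lay below control in every library with and without it (3.11% and 4.35% of all genes). At 6 weeks 5 of 6 genes lay wholly below the male uninduced hearts (13% of all genes), all but *A1cf*. In females 2 of 6 did (5.88%), *Plekhh1* and *D630003M21Rik*, and 5 of 6 without that library, all but *Fibin*, where 11.5% of all genes did. At 3 weeks 5 of 6 did in males (10.7%) and 2 of 6 in females (7.16%), or 6 of 6 without the library (14.4%). At 1 week 4 of 6 did in males (10.4%) and 1 of 6 in females (5.8%), *D630003M21Rik*, or 4 of 6 without it (11.3%).

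**Figure D3:**
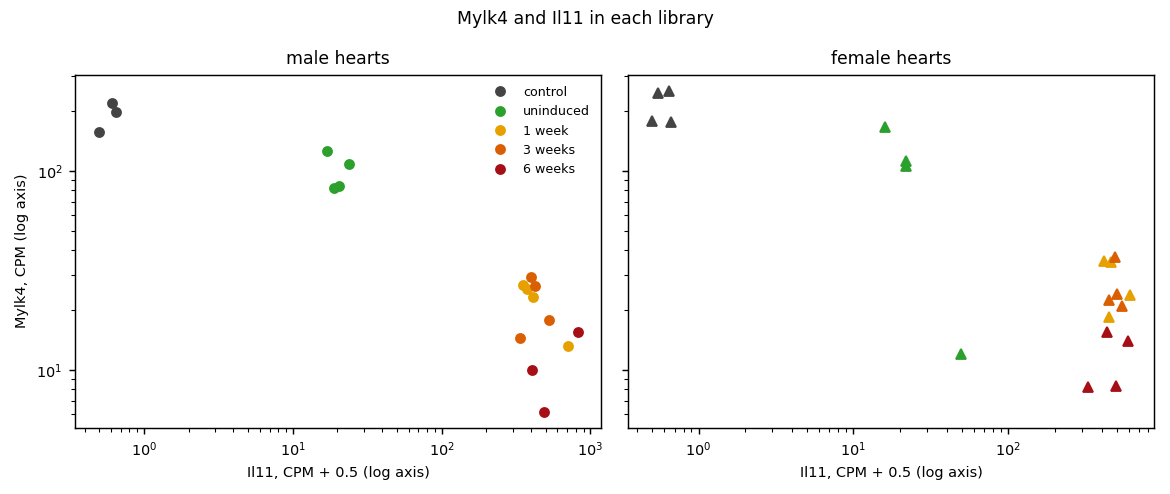
Mylk4 (CPM) against Il11 (CPM + 0.5) in each library, both on log axes, with 1 colour per group. Controls sit at 156 CPM or above, uninduced hearts with Il11 of 15.5 to 23.3 CPM between 82.2 and 166 CPM, and the uninduced female with Il11 of 49.1 CPM at 12 CPM.

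The 6 genes were compared between 3 weeks and 1 week, which took no part in choosing them. None of the 12 comparisons (6 genes in 2 sexes) passed limma's test, with adjusted p-values from 0.497 to 0.984 and log2 differences from -0.73 to 0.22. At an unadjusted p under 0.05 there was 1, *Lgi1* in females (-0.73, 95% confidence interval -1.47 to -0.00), and edgeR and DESeq2 on recovered reads also called 0. The background was low too: 0.0177% of all genes in males and 0.218% in females were called. For *Mylk4* the difference was -0.01 (-0.56 to 0.53) in males and -0.09 (-1.16 to 0.97) in females. For *D630003M21Rik* it was 0.02 (-0.54 to 0.58) and 0.22 (-0.33 to 0.77). Differences inside these intervals remain possible. A call also needed an adjusted p under 0.05, so a difference whose interval leaves out 0 could go uncalled, as *Lgi1* did in females. In an exact permutation test, two-sided, with 4 libraries against 4, the lowest p was 0.114, for *Lgi1* in females, where the design could reach 0.0286. After adjustment over the 12 tests it was 0.99, and a single gene alone could not have gone below 0.343, so the adjusted permutation test could not call one gene. The difference between 3 weeks and 1 week was also compared between the sexes, and none of the 6 genes was called (lowest adjusted p 0.428 from limma, 0 at an unadjusted p under 0.05, and 0 called by edgeR and DESeq2). No gene of the 16627 tested in both sexes was called in that test by limma.

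Genes known to work with the 6, or to be their relatives, were set beside them. Of the 42 on the list, 40 were tested in each sex. At 6 weeks 11 were higher and 5 lower in males, or 27.5% and 12.5%, against 16.2% and 10.9% of all genes. In females 12 were higher and 9 lower, or 30% and 22.5%, against 21.7% and 21% of all genes. The list's median log2 change was 0.01 in males and 0.08 in females, beside -0.01 and -0.02 for all genes. At 1 week 10 were higher and 7 lower in each sex (all genes 18.9% and 14.6% in males, 15.3% and 13.1% in females). At 3 weeks 12 were higher and 5 lower in males (13.2% and 8.1%), and 11 higher and 8 lower in females (16.8% and 14.5%). In uninduced hearts 1 was higher in males and 3 in females, and none was lower, where 0.561% and 2.41% of all genes were higher and 0.0354% and 0.466% lower. All tests of these genes are limma's with Benjamini-Hochberg adjustment over all genes of the sex.

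Among the relatives of *Lgi1* more genes were higher than lower. *Lgi2*, another secreted member of the LGI family, rose from 1.78 ± 0.415 CPM in male controls (SD, n = 3) to 15.1 ± 1.93 CPM at 6 weeks (SD, n = 3). In females it rose from 1.98 ± 0.363 to 26.5 ± 7.93 CPM (SD, n = 4 each). The log2 change was 2.78 (standard error 0.17, adjusted p = 4.41e-10 from limma) in males and 3.42 (0.17, adjusted p = 4.54e-12) in females, and every induced heart was above every control. *Lgi2* was also higher in uninduced hearts, at 9.09 ± 1.33 CPM in males (log2 change 2.08, adjusted p = 1.04e-07) and 10.8 ± 2.14 CPM in females (2.18, adjusted p = 8.49e-08). *Lgi3* rose by 0.95 in males (adjusted p = 0.00799) and 0.94 in females (adjusted p = 0.00118), and *Lgi4* by 0.93 (adjusted p = 0.00325) and 0.82 (adjusted p = 0.00241). Among the ADAM proteins that LGI proteins bind, *Adam11* rose from 15.3 to 58.2 CPM in males (1.90, adjusted p = 5.31e-06) and from 12.4 to 40.6 CPM in females (1.67, adjusted p = 1.11e-06). *Adam23* was higher in males (1.13, adjusted p = 0.00948) and *Adam22* was lower in females (-0.56, adjusted p = 0.0048). The Kv1 channel subunit gene *Kcnab2* rose by 1.41 in males (adjusted p = 0.000327) and 1.39 in females (adjusted p = 1.11e-06), while *Kcna5*, the cardiac Kv1.5 channel, was lower in females (-0.69, adjusted p = 0.000248). In all, 7 of the 12 genes of this group were higher and 0 lower in males, and 5 higher and 2 lower in females, beside 16.2% and 10.9% of all genes in males and 21.7% and 21% in females. In males *Dlg4* was also called higher (0.41, adjusted p = 0.0422), but in 7 alternative settings it was not. In female uninduced hearts *Adam11* (0.75, adjusted p = 0.0434) and *Kcnab2* (0.89, adjusted p = 0.00361) were called higher. The *Adam11* call was lost in 6 of 14 alternative settings, that without female uninduced replicate 3 among them, and the *Kcnab2* call in 1, without the replicates numbered 3. In males *Lgi3* was not called at 6 weeks without the replicates numbered 3, *Lgi4* without those numbered 4, and *Adam23* without those numbered 1.

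Of the 8 genes around RNA editing, 3 rose in males and 4 in females and none fell, where 16.2% and 21.7% of all genes rose and 10.9% and 21% fell. *Rbm47*, an RNA-binding protein that can also serve APOBEC1 as a cofactor, rose from 0.713 to 3.67 CPM in males (1.73, standard error 0.27, adjusted p = 7.47e-05) and from 0.766 to 3.88 CPM in females (1.79, standard error 0.21, adjusted p = 8.04e-07). *Apobec1* itself rose by 1.04 in males (adjusted p = 0.000786) and 1.15 in females (adjusted p = 8.89e-05), and *Apobec3*, an antiviral deaminase, by 1.35 (adjusted p = 6.32e-07) and 0.99 (adjusted p = 0.00154). *Syncrip* was higher in females (0.26, adjusted p = 0.0123), a call that was lost without the replicates numbered 3 or 4. The other genes of the group, with *Apob*, the editing target, and the adenosine deaminases *Adar* and *Adarb1* among them, were not called at 6 weeks in either sex. *Apobec1*, *Apobec3* and *Rbm47* rose in the same hearts as the 5 macrophage markers, and the part of that shift was not tested.

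Of the 5 relatives of *Plekhh1* tested, 3 fell and 1 rose in males, and 4 fell and 1 rose in females, where 10.9% and 21% of all genes fell and 16.2% and 21.7% rose in males and females. *Plekhh2*, a paralog with the same domains, fell from 6.99 ± 2.12 to 2.97 ± 0.385 CPM in males (-1.07, adjusted p = 0.00212; SD, n = 3 each) and from 5.71 ± 0.793 to 2.49 ± 0.770 CPM in females (-1.08, adjusted p = 0.000314). *Myo10*, a MyTH4-FERM myosin of filopodia, fell by 1.06 on the log2 scale in males (adjusted p = 5.48e-06) and by 1.2 in females (adjusted p = 1.83e-06), and *Myo7b* by 1.21 (adjusted p = 0.00292) and 1.43 (adjusted p = 0.0011). *Plekhh3* was lower in females (-0.43, adjusted p = 0.0107). *Myo7a*, a MyTH4-FERM myosin known from hair cells, rose by 0.93 (adjusted p = 5.63e-05) and 0.58 (adjusted p = 0.0146). *Plekhh3* was not called in males (-0.56, adjusted p = 0.141). The male call of *Myo7b* was lost without the replicates numbered 4, and the female calls of *Plekhh3* and *Myo7a* without those numbered 1 or 2 and 1 or 3, respectively.

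Of the 15 kinases, light chains, calmodulins and phosphatase subunits around *Mylk4* tested in each sex, 0 rose and 2 fell in males, and 2 rose and 3 fell in females. The shares that fell, 13.3% and 20%, were near those of all genes, 10.9% and 21%, and the shares that rose, 0% and 13.3%, were below 16.2% and 21.7%. *Mylk3*, the main cardiac myosin light chain kinase, was lower in males (556 to 366 CPM, -0.61, adjusted p = 0.00655). *Ppp1r12b*, a targeting subunit of myosin phosphatase in heart, fell by 0.53 on the log2 scale in males (adjusted p = 0.0153) and by 0.46 in females (adjusted p = 0.0138). In females *Myl2*, the ventricular regulatory light chain, fell by 0.58 (adjusted p = 0.00323) and *Mylk*, the smooth muscle and non-muscle kinase, by 0.48 (adjusted p = 0.0111), while the calmodulin genes *Calm2* and *Calm3* rose by 0.64 (adjusted p = 4.52e-05) and 0.32 (adjusted p = 0.028). Several of these calls were lost when 1 replicate number was left out of every group. *Mylk3* was not called without the replicates numbered 4, nor *Ppp1r12b* without those numbered 3 in males and 2 in females, nor *Mylk* without 2 or 4, nor *Calm3* without 3 or 4. The male calls of *Mylk3* and *Ppp1r12b* were also lost when only the 2 groups compared were fitted. A sex difference in the change at 6 weeks was tested for 39 related genes and none was called (lowest adjusted p 0.138 from limma, 4 at an unadjusted p under 0.05, and 0 called by edgeR and DESeq2).

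**Figure D4:**
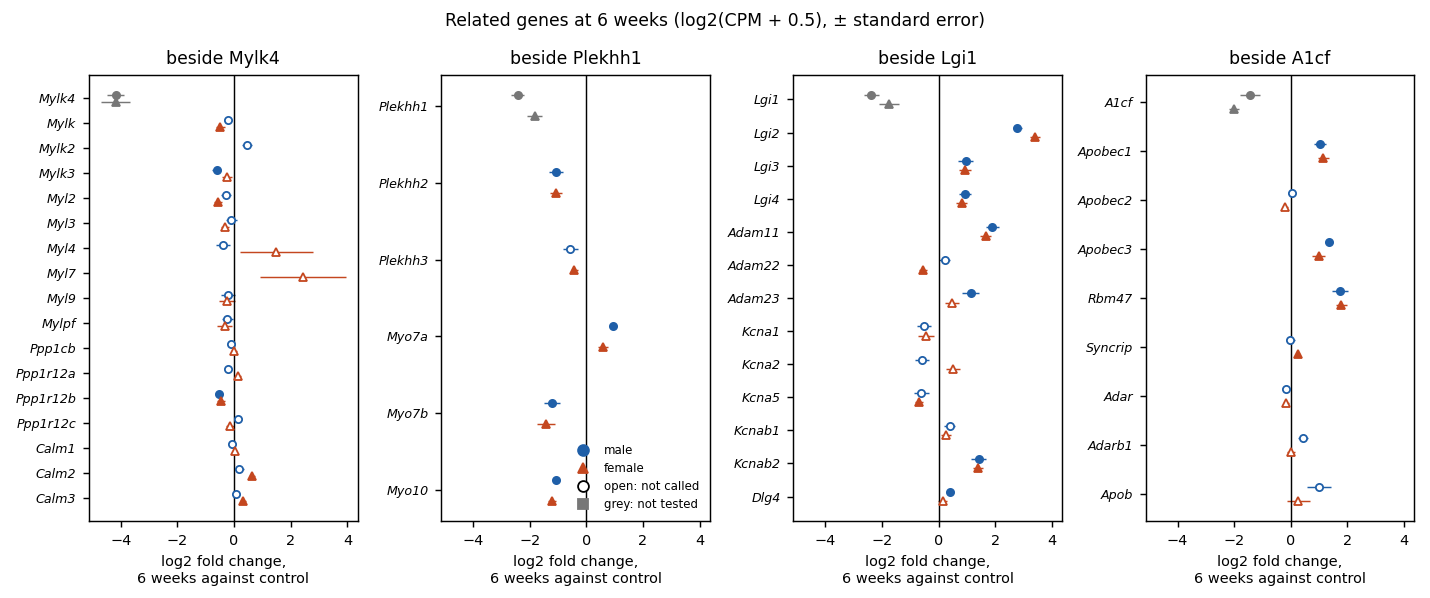
Log2 fold change at 6 weeks against control, with bars of 1 standard error, for the related genes of Mylk4, Plekhh1, Lgi1 and A1cf, with circles for male and triangles for female hearts. Filled points were called, open points were not, and grey points are the chosen genes, which were not tested. Lgi2 lies at 2.78 and 3.42 where Lgi1 lies at -2.38 and -1.74.

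Genes within 100 kb of the 6 were examined next. Of the 14 listed there, 13 were tested in males and 14 in females, and none of them lies beside *Fibin*. At 6 weeks 4 were higher and 2 lower in males, and 5 higher and 2 lower in females, with median log2 changes of 0.05 and 0.18 beside -0.01 and -0.02 for all genes. The neighbours that were lower made up 15.4% and 14.3%, beside 10.9% and 21% of all genes, and those that were higher 30.8% and 35.7%, beside 16.2% and 21.7%. At 3 weeks 4 were higher and 0 lower in males (all genes 13.2% and 8.1%), and 4 higher and 1 lower in females (16.8% and 14.5%). Beside *D630003M21Rik*, *Lbp*, which encodes the lipopolysaccharide-binding protein of the acute phase, rose from 4.52 ± 1.73 to 141 ± 35.4 CPM in males (log2 change 4.84, adjusted p = 3.43e-11; SD, n = 3 each) and from 6.30 ± 0.383 to 162 ± 19.5 CPM in females (4.57, adjusted p = 1.24e-11; SD, n = 4 each). *Lbp* was also higher in uninduced hearts, by 1.29 in males (adjusted p = 0.0075) and 1.19 in females (adjusted p = 0.00776), calls that were lost without the replicates numbered 1 or 3 in males and 4 in females. *Tgm2*, a transglutaminase gene on the other side of *D630003M21Rik*, rose by 0.62 (adjusted p = 0.00056) and 0.53 (adjusted p = 0.012), the latter not without the replicates numbered 3. Beside *Mylk4*, *Serpinb1a*, an inhibitor of neutrophil proteases, rose by 2.04 (adjusted p = 4.96e-05) and 2.55 (adjusted p = 9.13e-07), and *Wrnip1*, whose span on the opposite strand contains *Serpinb1a*, was lower (-0.32, adjusted p = 0.0438, and -0.26, adjusted p = 0.0431). *Lbp*, *Tgm2* and *Serpinb1a* were thus higher, and *Wrnip1* was lower, in the hearts in which *D630003M21Rik* and *Mylk4* were lower. The other listed neighbours of these genes, *Rprd1b* and *Serpinb1c*, were not called at 6 weeks in either sex. Beside *A1cf*, the lncRNA *9130016M20Rik*, which starts at 31927484 on the same strand, fell in females from 0.818 ± 0.197 to 0.103 ± 0.0704 CPM (-1.12, adjusted p = 0.000131; SD, n = 4 each). It was below the filter on low values in males, and with its start so close to the end of *A1cf*, reads running past that end cannot be told apart from its own. Neither of the genes beside *Lgi1* was called. Beside *Plekhh1*, *Rdh11* was higher in both sexes (0.49, adjusted p = 0.0226, and 0.43, adjusted p = 0.0177), *Tmem229b* was higher in females (0.40, adjusted p = 0.0383) and the overlapping *Pigh* was lower in males (-0.43, adjusted p = 0.0418). The calls of *Wrnip1*, *Rdh11*, *Tmem229b* and *Pigh* were each lost in 4 to 9 alternative settings.

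The levels of the 6 genes went together across libraries. Over the 15 pairs the Pearson correlation of log2(CPM + 0.5) ran from 0.57 to 0.93 in the 18 male libraries (median 0.82) and from 0.62 to 0.94 in the 20 female libraries (median 0.85). The libraries share their groups, so these values mostly restate the fall from control to induced hearts and have no p. Among the 16627 genes tested in both sexes, the genes most like each were taken by the smaller of the male and the female correlation. For *Mylk4* these were *Ccdc141* (0.936 in males and 0.952 in females), *Intu* (0.951 and 0.935) and *Krt222* (0.930 and 0.954). For *Plekhh1* they were the thin-filament capping protein *Tmod1* (0.920 and 0.921), *Myo10* (0.924 and 0.914) and *Hspa12a* (0.913 and 0.913). *Heyl* (0.929 and 0.932), the mitochondrial fatty acid oxidation enzyme *Hadh* (0.922 and 0.923) and the potassium channel subunit *Kcnip2* (0.920 and 0.919) were closest to *D630003M21Rik*. *Fibin* was followed at lower values by *Colgalt2* (0.820 and 0.832), the potassium channel *Kcnk2* (0.848 and 0.808) and *Krt222* (0.807 and 0.819). The gene closest to *Lgi1* was its near copy *Gm3888* (0.961 and 0.952), then *Ndrg4* (0.882 and 0.887) and *Osbpl3* (0.881 and 0.877). *A1cf* was nearest to the lncRNAs *Gm19277* (0.863 and 0.852) and *2310020H05Rik* (0.842 and 0.890) and to *Celsr3* (0.824 and 0.850).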

How the data were processed

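PolyA RNA from heart was sequenced as directional libraries. Per the study's methods, STAR aligned reads to GRCm39, featureCounts assigned them to genes and edgeR tested differences. The authors deposited 1 table per sex, whose signal is called CPM. 100% of them lie within 0.001 of a whole number of reads once a factor per library is taken out, and columns sum to 817395 to 1196278. Groups came from the labels. Of 40 libraries, 2 male ones with conflicting labels were left out. Replicates are separate mice.

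Genes with at least 0.5 CPM in at least 3 libraries (16931 male, 16956 female) were fitted with limma 3.58.1 in R 4.3.3 on log2(CPM + 0.5), with a mean-variance trend, 1 sex per fit and no covariates. A gene was called at a Benjamini-Hochberg adjusted p under 0.05. The design had assumed plain CPM, and the study's edgeR test needs counts, so edgeR 4.0.16 and DESeq2 1.42.0 on recovered reads were alternatives. The scripts were tested on simulated data. Members, gene lists and tests were chosen with earlier results of these data known. The genes named are the 6, *Il11*, genes of the lists, neighbours within 100 kb, the 3 genes most like each and the first gene outside the choice in each contrast. *Myl7* was singled out after its values were seen. Positions are from GENCODE on GRCm39.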

Additional observations from a re-analysis of the deposited data

Results flagged for a closer look

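In male hearts at 3 weeks, 1 library stood apart for *D630003M21Rik*, at 1.99 CPM against 1.2, 1.23 and 1.25 CPM in the other 3. A library stood apart where its gap to the next, over the range of its group, passed the 95% limit of Dixon's test. Of 48 groups of 4 libraries examined for the 6 genes, 1 passed, and chance alone gives about 1 in 20. The 12 CPM of *Mylk4* in female uninduced replicate 3 did not pass it, since the other 3 libraries were themselves spread from 105.8 to 166 CPM.

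Of the 2 male libraries with conflicting labels, the one titled as a control and described as 6 weeks held *Il11* at 511 CPM. Male hearts at 6 weeks held 407 to 819 CPM. The library titled as 6 weeks and described as WT held 0.597 CPM (15 reads). That was above the highest male control (0.147 CPM) and below the lowest male uninduced heart (16.5 CPM). In *Il11*, each was nearer to the group of its description than to that of its title. Outside the alternative settings, neither is part of any comparison.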

How the results depend on the processing

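Another scale for low levels moved the fold changes of the 6 genes against control by -1.71 to 0.47 on the log2 scale with edgeR, -1.74 to 0.48 with DESeq2, at most 1.08 with a pseudocount of 2 and down to -1.22 with one of 0.1. No filter, fitting 2 groups alone or median-of-ratios scaling moved them by at most 0.02, and a filter of 1 CPM in 4 libraries removed *A1cf* in males. *Lgi1* in female uninduced hearts ran from -0.90 to 0.073 with 1 replicate number left out, and *D630003M21Rik* in male uninduced hearts was 0.069 with both conflicting male libraries assigned by title, which shifted male fold changes by 0.32 to 1.97. Assigned by description, these libraries shifted them by -0.22 to 0.28 and reversed none.

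None of the 6 genes was called between 3 weeks and 1 week, or in the sex difference, under any alternative, and the sign of small differences changed. With 1 replicate number left out, that difference ran from -0.39 to 0.20 for *Mylk4* in males (0.00034 with DESeq2) and -0.33 to 0.087 in females, -0.24 to 0.14 for *Lgi1* in males, -0.038 to 0.090 for *D630003M21Rik* in males, -0.015 to 0.15 for *A1cf* in females and -0.79 to 0.20 for *Fibin* in females. *Fibin* in females was 0.077 without the 2 libraries with *Myl7*, an alternative chosen, like that without female uninduced replicate 3, after seeing the data.

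Of 17, 17 and 16 related genes called in males at 1, 3 and 6 weeks, 9, 0 and 0 were called with assignment by title, and 18, 18 and 18 with assignment by description. Over the named genes called in males, assignment by title lost 54 of 69 calls and assignment by description 1. Assignment by title puts the library with *Il11* at 511 CPM among the controls and that with 0.597 CPM at 6 weeks. In males 8, 7 and 10 related genes were called with a log2 change of at least 1. In females 7, 10 and 8 of 17, 19 and 21 passed this limit, and 1 of 3 in uninduced hearts. In uninduced males the related gene and the neighbour called were lost by title (0 each). With 1 number left out, male calls ran from 11 to 16 at 1 week and 9 to 14 at 3 weeks. Of 7, 4 and 6 neighbours in males, 3, 2 and 2 passed the limit, and 0 were called by title at 3 and 6 weeks. Of 5, 5 and 7 in females, 2, 2 and 3 passed it. With 1 number left out, neighbours ran from 0 to 1 in uninduced hearts of each sex, 3 to 4 in males at 6 weeks, and 3 to 5, 3 to 5 and 4 to 5 in females. Without the 2 libraries with *Myl7*, 3 and 4 were called in females at 1 and 6 weeks, and with 2 groups alone 0 in uninduced females. The causes were not tested.

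With group means taken out, libraries of the same replicate number had a mean correlation of 0.013 in males and 0.025 in females. For libraries of different numbers it was -0.0041 and -0.0085. Single pairs of the same number ran from -0.13 to 0.26 in males and from -0.34 to 0.56 in females. Whether some numbers pair mice cannot be told from these means. A replicate block shifted fold changes of the 6 genes by -0.11 to 0.03, lost 11 of 147 calls of named genes and called 15 and 21 related genes at 6 weeks. Depth limits *A1cf* most, with 17 reads over the 4 female libraries at 6 weeks.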

Other observations

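The levels of the 6 genes in the 2 male libraries with conflicting labels are given as values only. The library titled as 6 weeks held *Mylk4* at 201 CPM, *D630003M21Rik* at 11 CPM, *Fibin* at 7.52 CPM, *Lgi1* at 3.78 CPM, *Plekhh1* at 2.19 CPM and *A1cf* at 0.796 CPM. The library titled as a control held them at 15.3, 0.738, 0.738, 1.11, 0.574 and 0.246 CPM in the same order.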
